A study of Mus musculus with 2 samples.

Results

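The genes described here are 10 genes of alternative activation and tissue remodelling in macrophages: Arg1, Mrc1, Retnla, Chil3, Ccl24, Fn1, Pf4, Mmp12, Thbs1 and Inhba. They were chosen with earlier results of these data known and were read by gene symbol, as listed in the feature files. Each symbol was found once among the 32432 genes measured. Their raw UMIs (unique molecular identifiers, 1 per captured transcript end) were read in all 8 matrices and followed through subsets of monocytes, macrophages and dendritic cells of mouse tumours in both genotypes.

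Macrophages exposed to interleukin-4 or interleukin-13 enter a state called alternative activation, in which the transcription factor STAT6 turns on genes such as Arg1, Mrc1, Retnla, Chil3 and Ccl24. Arg1 is also induced by hypoxia and lactate in tumours, where the enzyme consumes the arginine that T cells need. Fibronectin, thrombospondin 1, macrophage elastase, platelet factor 4 and activin A form or cut the matrix around cells or signal through it, and tumour macrophages are known to make several of them. Trex1 is a DNase that removes cytosolic DNA, and its loss is known to activate the cGAS-STING pathway and type I interferon.

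The tumours were B16-F10, a mouse melanoma line, grown from 1000 cells injected in Matrigel into the skin of both legs of male mice aged 8 to 12 weeks, and taken on day 14. The Trex1 iKO group carried Trex1 Fl/Fl R26CreERT2, with both Trex1 alleles floxed. The control group carried Trex1 Fl/WT R26CreERT2, with 1 floxed and 1 wild-type allele, so it is not a wild-type group. Mice of both groups carried 1 knock-in copy of R26CreERT2, a Cre made from a ubiquitously active locus and not limited to 1 cell type, and received 1 mg tamoxifen by intraperitoneal injection on 3 days from day 5. Live CD45+ cells were sorted and sequenced from their 3' transcript ends as 4 hashtagged samples per genotype, with 1 pool per genotype. Genotype and pool therefore cannot be told apart. The labels do not say that each hashtagged sample is 1 mouse, and p-values measure only the spread between these samples. The tests treat the 4 samples of a genotype as independent, yet the iKO samples stood in the pairs given below. Leaving out 1 sample does not check this independence.

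Each sample held 17111065 to 96457227 UMIs, and 22052 of 23731 barcodes were kept. The pools shared 45 barcodes, and samples of 1 pool shared 0. The labels call the cells lymphocytes, yet 9059 of the kept cells were monocyte/macrophage-like, with all 14 markers of that type present: 5982 iKO cells and 3077 control cells, with median depths of 14942 and 14392 UMIs per cell. Trex1 itself had 2 UMIs in these cells, so its deletion could not be checked. Within the iKO pool the samples stood in pairs: in monocyte/macrophage-like cells the chi-square over genes, divided by its degrees of freedom, was 7.36 between iKO 1 and iKO 2 and 4.49 between iKO 3 and iKO 4, and 49.3 to 74.7 between a sample of one pair and a sample of the other. The interferon-induced gene Isg15 was at 1839 ± 1108 CPM (the gene's UMIs as parts per 1e6 of all UMIs in those cells; mean ± SD, n = 4) in iKO and 365 ± 123 in control monocyte/macrophage-like cells.

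RefSeq promoter windows (GRCm38.p6, 250 bases before to 50 after a start) were found for 6 of the 10 genes, Mrc1, Retnla, Chil3, Pf4, Mmp12 and Inhba, as 7 windows because Mmp12 has more than 1; Arg1, Ccl24, Fn1 and Thbs1 were not matched. The 2 stretches shown, the 250 bases before a start, were picked because the letters of a searched factor were found in them, and capitals mark those letters. Retnla (chr16:48842359-48842608, plus strand) holds the STAT6 form (TTC and GAA with 4 bases of any kind between), STAT6 being the factor that drives alternative activation, with the first base at -145 from the start. Mmp12 (chr9:7347124-7347373, plus strand) holds the AP-1 form TGANTCA at -44.
Retnla: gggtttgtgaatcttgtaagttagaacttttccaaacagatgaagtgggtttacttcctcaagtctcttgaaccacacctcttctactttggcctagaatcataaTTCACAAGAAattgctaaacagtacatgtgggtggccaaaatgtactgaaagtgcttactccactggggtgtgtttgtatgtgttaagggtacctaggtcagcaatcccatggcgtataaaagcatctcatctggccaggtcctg
Mmp12: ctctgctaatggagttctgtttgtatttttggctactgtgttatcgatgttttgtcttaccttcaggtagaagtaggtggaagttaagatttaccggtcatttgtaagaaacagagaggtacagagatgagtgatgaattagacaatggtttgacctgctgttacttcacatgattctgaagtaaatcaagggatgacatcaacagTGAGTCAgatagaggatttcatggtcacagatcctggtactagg
Each form named here was searched on both strands. The STAT6 form was found in 6.95% of 32851 promoter windows of the same length and TGANTCA in 7.81%. The HIF core ACGTG, found in 19.6% of windows, was in the Pf4 window at 43 on the plus strand, and the interferon form (TTTC and TTTC with 2 bases between), found in 3.44%, was in 0 of the 7 windows. None of these forms overlapped another. A match describes these letters in this window and does not show a bound site.

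The genes were largely read from monocytes and macrophages. The share of a gene's UMIs over all kept cells that came from monocyte/macrophage-like cells ran from 86.7% for Inhba to 97.5% for Arg1. Inhba and Thbs1 had a further source in neutrophil-like cells, which held 11.3% and 5.78% of their UMIs. The class was divided by gates that use none of the 10 genes: cycling cells (Mki67, Top2a, Birc5, Ube2c, Cdk1), then macrophages with Cxcl9 and Cxcl10, which attract T cells, then macrophages with complement C1q, then monocytes with Vcan and Ccr2, and the rest as ungated cells. Levels below are CPM within a gate, and genes are not compared with each other because 3' counts do not rank transcripts of different genes.

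Fn1, Thbs1 and Chil3 had their highest mean level over the 8 samples in gated monocytes. Fn1, which encodes fibronectin, was at 602 ± 344 CPM (SD, n = 8) there and at 445 ± 347 in C1q macrophages, with monocytes higher in 8 of 8 samples. Chil3, which encodes the chitinase-like lectin Ym1, was at 549 ± 512 CPM in monocytes and 297 ± 237 in Cxcl9/Cxcl10 macrophages, again higher in 8 of 8. Thbs1, which encodes the matrix glycoprotein thrombospondin 1, was at 1261 ± 480 CPM in monocytes and 1071 ± 821 in ungated cells, and these neighbours kept this order in only 5 of 8 samples.

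Over the 8 samples Pf4, Mrc1, Ccl24 and Retnla had their highest mean in C1q macrophages, for Ccl24 and Retnla through control samples. Pf4, a chemokine stored in platelets and also made by macrophages, was at 1456 ± 1291 CPM there and at 786 ± 650 in cycling cells, the next level, with the same order in 8 of 8 samples. Mrc1, the mannose receptor CD206, was at 400 ± 206 CPM in C1q macrophages and 335 ± 206 in cycling cells, an order seen in 6 of 8 samples. The eotaxin gene Ccl24 was at 55.7 ± 83.6 CPM in C1q macrophages and 39.9 ± 55.7 in ungated cells, which did not differ beyond their spread. In iKO alone Ccl24 was at 12.99 CPM in C1q macrophages, below its 18.7 in monocytes, 21.4 in Cxcl9/Cxcl10 macrophages and 34.4 in ungated cells, and in control 4 it was at 251 in C1q macrophages. Retnla, which encodes the secreted protein RELMα, had 85.7% of its UMIs in C1q macrophages, nearly all from 1 sample described below.

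Arg1, Mmp12 and Inhba were highest in the ungated cells, those without the C1q, chemokine, cell-cycle or Vcan and Ccr2 signal. Mmp12, macrophage elastase, was at 580 ± 416 CPM there and 175 ± 113 in C1q macrophages, and Inhba, the βA subunit of activin A, at 465 ± 302 and, in monocytes, 134 ± 58.8; both orders held in 8 of 8 samples. Arg1, arginase 1, was at 806 ± 663 CPM in ungated cells, 581 ± 357 in C1q macrophages, 455 ± 389 in monocytes, 214 ± 180 in Cxcl9/Cxcl10 macrophages and 121 ± 154 in cycling cells. Neighbours in this order changed places in 1 to 3 of the 8 samples. The ungated gate held different cells in each genotype: 61.0% of its 538 iKO cells were in cluster 18, led by Ear2, Ace and Adgre4, and 66.0% of its 247 control cells in cluster 2, led by Hspa1a, Hspa1b and Mmp12. Its genotypes were therefore not tested.

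**Figure D1:**
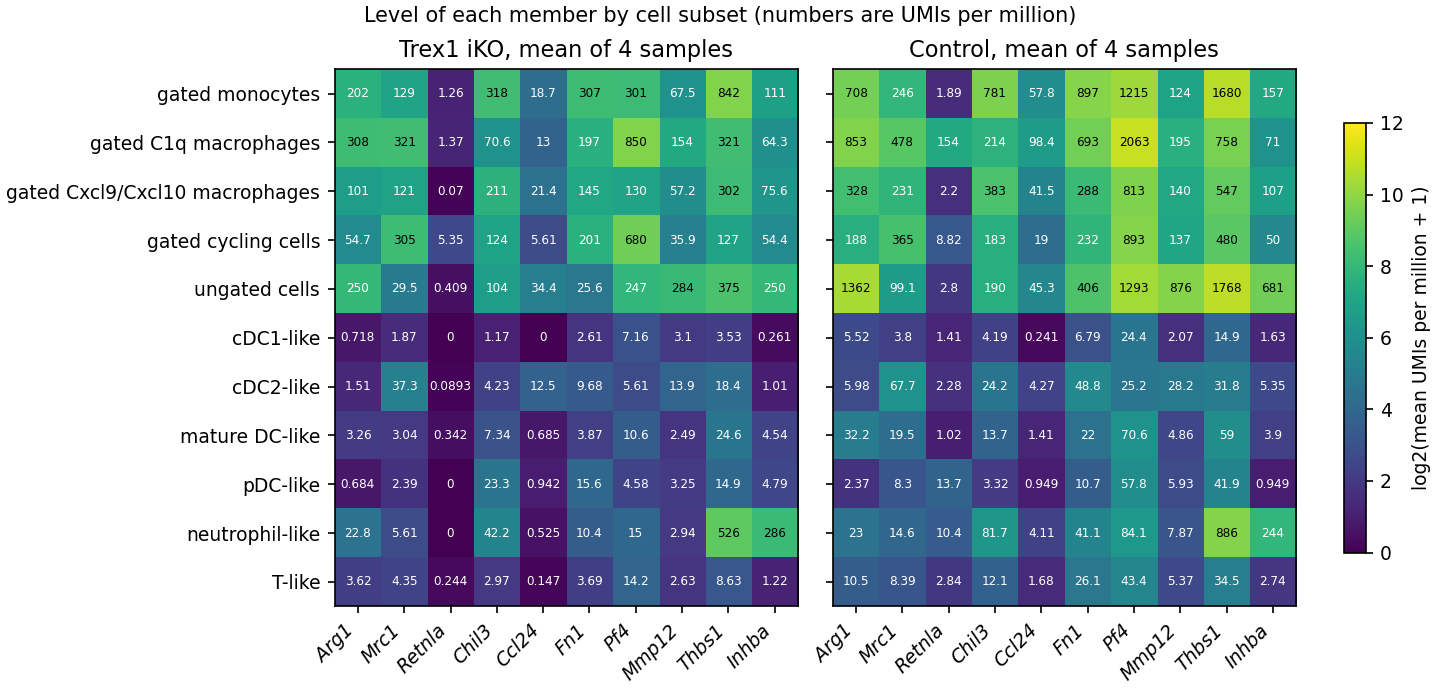
Level of each gene (columns) in each monocyte/macrophage gate and in dendritic, neutrophil-like and T-like classes (rows), as the mean of 4 samples; cell numbers are CPM and colour is log2(mean CPM + 1), from dark (low) to yellow (high). The dendritic and T-like rows are dark for most genes, Fn1 and Chil3 peak in monocytes and Pf4 and Mrc1 in C1q macrophages of both genotypes, and Thbs1 peaks in monocytes of iKO and in ungated cells of control.

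Clusters drawn without the 10 genes placed them more finely. Cluster 10, 904 cells led by Arg1, Spp1 and Ctsl, held 41.3% of the class's Arg1 UMIs, 36.5% of its Thbs1 and 29.8% of its Fn1. Cluster 2, 1149 cells, held 53.7% of the Mmp12 UMIs and 49.2% of the Inhba UMIs. Cluster 26, 278 cells led by Pf4, Mrc1 and Ppbp, held 32.2% of the Pf4 UMIs. Cluster 11, 823 cells led by Chil3 and Hp, held 27.0% of the Chil3 UMIs. Some clusters held like parts of the class in both genotypes: cluster 0, the largest, made up 14.8% of it in iKO and 14.3% in control. Others did not. Cluster 10 made up 6.99% of it in iKO and 15.8% in control, cluster 2 made up 7.99% and 21.8%, and cluster 26 made up 1.34% and 6.43%. Cluster 5, led by Cxcl10 and Cxcl9 and with Arg1 at 11.3 CPM, made up 16.8% and 1.40%. These shares carry no test.

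The first comparison asked whether the 10 genes differ between Trex1 iKO and control monocyte/macrophage-like cells. Arg1, Fn1 and Thbs1 fell in iKO, and the other 7 genes also had fitted changes below 0 that did not pass the test. UMIs were summed per hashtagged sample and tested with edgeR's quasi-likelihood test, with Benjamini-Hochberg adjustment over 11814 genes. All 10 genes passed the low-count filter, 3 of 10 were called at an adjusted p under 0.05, and all 3 were lower in iKO. Over all genes tested 10.8% were called, 4.94% as lower and 5.84% as higher in iKO, beside 3 of 10 here. The 10 genes were chosen with earlier results of these data known, and several share cells. This share and the directions below therefore do not test the set. All genes called split into 690 higher and 584 lower, or 1015 and 455 when scaled by library size alone, and the same 3 of 10 count of lower genes was found under both scalings. The median log2 fold change (iKO over control) was -1.52 over the 10 genes and -0.01 over all genes, and 10 of 10 were below 0, against 50.9% of all genes. In summed counts, fewer expressing cells and less RNA per expressing cell cannot be told apart.

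Arg1 was at 139, 215, 195 and 183 CPM in iKO 1 to 4, and at 430, 952, 348 and 1086 in control 1 to 4. Every iKO sample lay below every control sample, and the controls spread widely, with control 2 and control 4 high. The means were 183 ± 31.9 and 704 ± 369 CPM (SD, n = 4 each), a 3.85-fold higher level in control, and the log2 fold change was -1.99 ± 0.37 (SE; edgeR adjusted p = 0.0152). Without any 1 sample the adjusted p ran from 0.0115 to 0.0495.

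Among the matrix genes, Fn1 was at 197, 167, 270 and 228 CPM in the iKO samples and at 577, 524, 618 and 1069 in the controls. The groups did not overlap, and control 4 stood highest. Fn1 fell by 1.75 on the log2 scale (SE 0.24, edgeR adjusted p = 0.00668). Thbs1 was at 325, 593, 548 and 604 CPM in iKO and at 935, 1255, 1347 and 1275 in control. Here both groups were tight and did not overlap, with iKO 1 lowest. The Thbs1 change was -1.26 ± 0.19 (adjusted p = 0.00863 in the same edgeR test), at means of 517 ± 130 and 1203 ± 183 CPM. Arg1, Fn1 and Thbs1 were the 3 of 10 whose groups did not overlap, where 6.19% of all genes did not overlap in this direction, and these 3 passed the threshold in each of 16 alternative fits.

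Mmp12 was at 45.4, 58.5, 125 and 130.3 CPM in iKO and at 104, 399, 127 and 159 in control. The groups overlapped, and control 2 stood apart. The log2 fold change was -1.20 ± 0.46 (edgeR adjusted p = 0.121). Inhba was at 167, 85.5, 46.3 and 69.2 CPM in iKO and 183, 211, 125 and 110 in control, where iKO 1 lay within the control range; its change was -0.78 ± 0.39 (adjusted p = 0.218). Without iKO 1 the Inhba change was -1.26.

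Pf4 and Mrc1 split the iKO samples. Pf4 was at 49.2 and 114 CPM in iKO 1 and 2 and at 781 and 712 in iKO 3 and 4, against 367, 1775, 669 and 2842 in control 1 to 4. Mrc1 was at 39.1 and 52.7 CPM in iKO 1 and 2 and at 316 and 281 in iKO 3 and 4, against 149, 398, 237 and 434 in the controls. In both genes iKO 3 and 4 lay within the control range and iKO 1 and 2 below it, the same pairs that the chi-square over all genes separated. The log2 fold changes were -1.88 ± 0.88 for Pf4 (edgeR adjusted p = 0.191) and -0.92 ± 0.64 for Mrc1 (adjusted p = 0.370). The share of Cxcl9/Cxcl10 macrophages moved with the same pairs, at 49.8%, 40.4%, 14.2% and 13.7% of the class in iKO 1 to 4, and its part in these levels was not tested.

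The remaining genes each leaned on 1 control sample. Chil3 was at 228, 212, 204 and 219 CPM in iKO and at 1270, 167, 382 and 249.997 in control, so iKO was tight and control 1 was far above the rest. Its log2 fold change was -1.29 ± 0.54 (edgeR adjusted p = 0.147), and -0.32 without control 1. Ccl24 was at 12.01, 13.8, 27.2 and 24.7 CPM in iKO and at 18.3, 49.3, 23.8 and 176 in control, with the groups overlapping and control 4 highest. Its change was -1.90 ± 0.67 (adjusted p = 0.0982), and -0.69 without control 4. Retnla was at 0.667, 0.0616, 3.22 and 0.129 CPM in iKO and at 1.23, 1.604, 191 and 3.59 in control, low everywhere but in control 3. Its change of -6.06 ± 1.84 (adjusted p = 0.0654) became -1.53 without control 3.

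**Figure D2:**
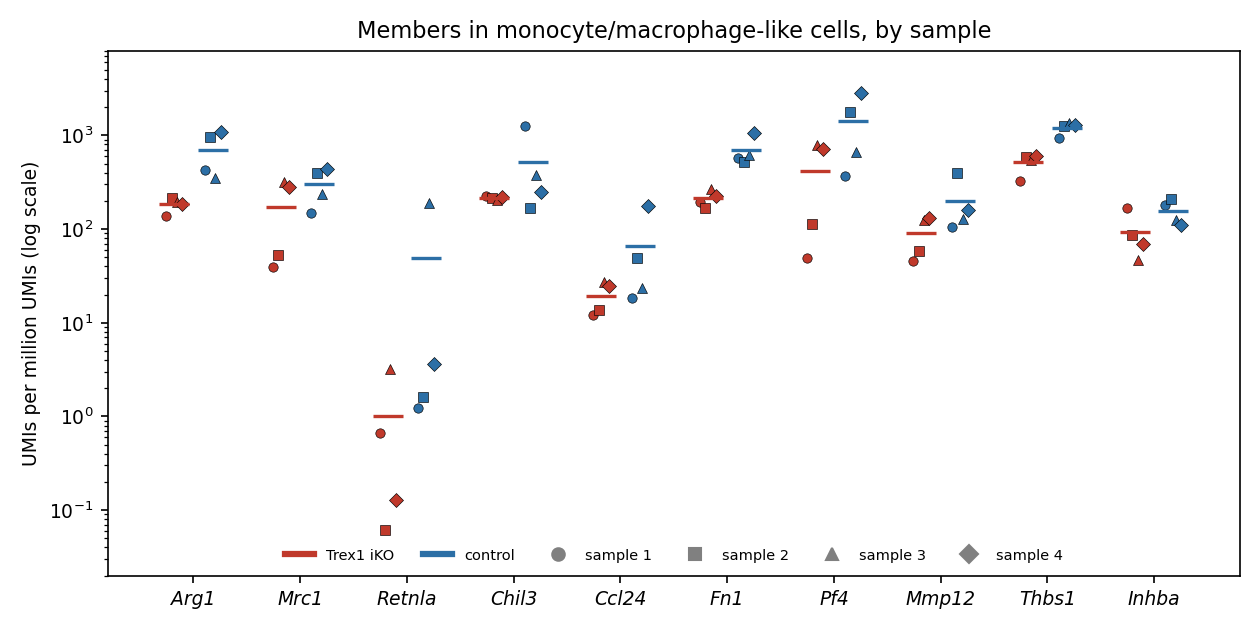
CPM (log scale) of each gene in the monocyte/macrophage-like cells of each hashtagged sample; points are samples and bars are group means, n = 4 per genotype. The iKO and control points do not overlap for Arg1, Fn1 and Thbs1, iKO 1 and 2 lie below iKO 3 and 4 for Pf4 and Mrc1, and control 3 stands alone for Retnla at 191.

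Markers of other cell types moved with genotype as well. In the monocyte/macrophage-like cells all 7 neutrophil markers were present, with a summed level of 192 to 350 CPM in the iKO and 451 to 868 CPM in the control group. All 7 platelet markers were present, summing to 3.11 to 26.6 CPM in iKO and 27.7 to 146 in control, and Ppbp, which tumour macrophages of cluster 26 also carried, made up most of it at 11.8 and 86.1 CPM. The platelet-defining Gp9 was at 0.594 and 0.529 CPM and Tubb1 had 3 UMIs in all. Some lists went the other way without overlap: the 7 pDC markers, which include the interferon-induced Bst2, summed to 625 to 1034 CPM in iKO and 257 to 417 in control, and the 7 NK markers to 13.6 to 31.8 and 5.11 to 10.4. The eosinophil granule genes Epx and Prg2 were at 0. T-like cells, which should lack these genes, had 8.63 ± 1.33 CPM of Thbs1 in iKO and 34.5 ± 15.3 in control, 3.69 ± 1.82 and 26.1 ± 10.6 of Fn1, and 3.62 ± 1.64 and 10.5 ± 3.63 of Arg1. These T-like means were also lower in iKO. Where these UMIs came from, and their part in the differences, was not tested.

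The share of cells with at least 1 UMI was compared after each cell was thinned to 3000 UMIs, which left out 85 of the iKO and 62 of the control cells. Fewer iKO cells held Arg1, Fn1 and Thbs1. Arg1 was found in 8.07%, 10.3%, 10.4% and 10.6% of iKO cells and in 18.3%, 34.2%, 17.4% and 37.1% of control cells. Fn1 was found in 23.7%, 21.2%, 27.7% and 25.3% against 48.5%, 43.2%, 50.4% and 61.7%. Thbs1 was found in 24.4%, 29.9%, 39.4% and 37.9% against 40.6%, 52.2%, 62.5% and 60.8%. None of these groups overlapped. How many of all genes separate in this way was not computed. The 2-sided exact permutation p was 0.0286 for each, the smallest that 4 against 4 samples allow, with 10 genes tested. Before thinning the means were 18.1% and 39.3% for Arg1, 43.4% and 70.2% for Fn1, and 48.5% and 71.5% for Thbs1.

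The same shares in T-like cells, whose median depths were 13067.5 UMIs in iKO and 6480 in control, were 1.22% and 3.84% for Arg1, 1.09% and 6.75% for Fn1, and 2.46% and 9.23% for Thbs1 after thinning. The macrophage shares lay above these in every sample. Cells that held the gene also held fewer UMIs of it. Among thinned cells with a UMI, Fn1 averaged 2.13 to 2.51 UMIs per cell in the iKO samples and 3.49 to 4.78 in control, and Thbs1 4.46 to 6.13 and 6.97 to 9.13, without overlap. Arg1 averaged 5.31 ± 0.727 and 7.93 ± 1.74 UMIs (SD, n = 4 each), where the groups overlapped.

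For the other genes the thinned shares in iKO and control were 15.9% and 34.6% for Pf4 and 6.40% and 11.98% for Mmp12 (exact permutation p = 0.0857 each), 6.70% and 12.5% for Inhba (p = 0.0571), 26.7% and 38.1% for Chil3 (exact p = 0.143), and 16.0% and 26.5% for Mrc1 (p = 0.229). The Ccl24 shares were 1.90% and 4.92% (exact p = 0.0857). Retnla was found in 0.0654% and 0.937% (exact p = 0.0286), beside 0.113% and 0.775% of T-like cells. Its share was above that of T-like cells in control 3 (1.79% against 0.552%) and control 4 (1.08% against 0.310%) and below it in control 2 (0.231% against 1.70%). Unthinned, 7 of 10 genes had p = 0.0286 by the exact test. The count of genes with an exact p under 0.05 was 4 of 10 with all samples and 4 to 6 when a control sample was left out. It was 1 when iKO 1, iKO 2, iKO 3 or iKO 4 was left out. The shares of Arg1, Fn1 and Thbs1 do not overlap in any of these subsets. With 3 iKO against 4 control samples, another split can have a larger mean difference than the genotypes. The fall to 1 therefore does not show that the shares depend on 1 iKO sample. No share over all genes was computed for thinned or unthinned shares. Whether these counts lie above the background therefore cannot be said.

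**Figure D3:**
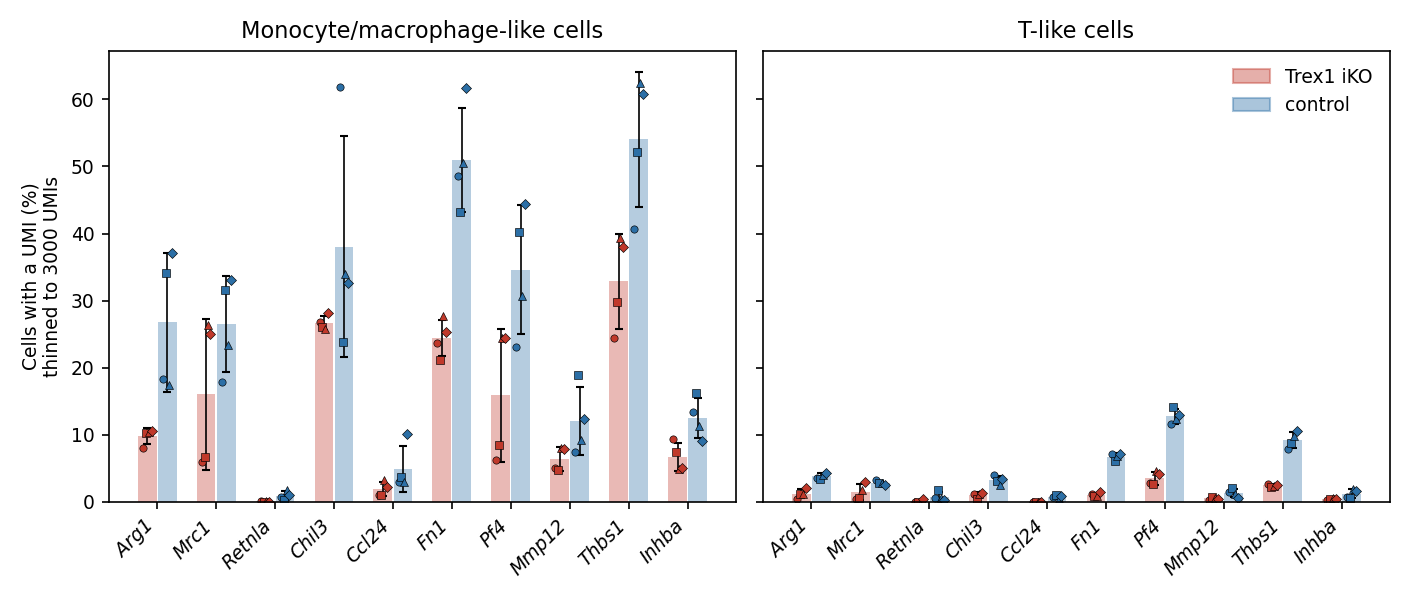
Percent of monocyte/macrophage-like cells (first panel) and T-like cells (second panel) with at least 1 UMI of each gene after thinning to 3000 UMIs per cell; points are samples, bars are group means and error bars are SD, n = 4 per genotype. In the first panel Arg1, Fn1 and Thbs1 separate without overlap, at means of 9.83% and 26.7%, 24.5% and 51.0%, and 32.9% and 54.0% in iKO and control.

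The second set of comparisons repeated the test within each gate. Gate shares of the class were 42.3% in iKO and 50.2% in control for monocytes, 14.8% and 24.6% for C1q macrophages and 29.5 ± 18.4% and 12.4 ± 5.65% for Cxcl9/Cxcl10 macrophages (exact permutation p = 0.229, 0.0857 and 0.171). Cxcl10, used to draw the last of these gates, was itself at 1215 ± 790 CPM in iKO and 346 ± 152 in control monocyte/macrophage-like cells. Cxcl9 was at 553 ± 427 and 334 ± 260. This gate was read before those of C1q macrophages and monocytes, and held 2055 iKO and 364 control cells. Gated cells are therefore not matched between genotypes, and the part of the gate order in the calls was not tested. Retnla did not pass the low-count filter in any gate. Arg1 and Fn1 fell in all 3 of these gates. Thbs1 fell in monocytes, Ccl24 in C1q macrophages and Pf4 in Cxcl9/Cxcl10 macrophages.

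In gated monocytes 3 of 9 genes tested were called, all lower, where 10.0% of all genes were called and 4.32% as lower. This gate also held a different mix of clusters in each genotype. Cluster 10 held 12.6% of its iKO and 25.5% of its control cells, and cluster 2 held 7.8% and 17.1%. Clusters 5 and 20 went the other way, at 11.05% and 0.903% for cluster 5 and 10.5% and 1.23% for cluster 20. The part of this mix in the calls was not tested. Fn1 was at 304, 246.5, 369 and 308 CPM in iKO and 818, 786, 782 and 1203 in control, and Thbs1 at 656, 1013, 784 and 913 against 1376, 1865, 1717 and 1761. Both were lower in every iKO sample than in every control sample, as were 4.99% of all genes. The changes were -1.63 ± 0.17 for Fn1 (edgeR adjusted p = 0.000786) and -1.07 ± 0.14 for Thbs1 (adjusted p = 0.00185). Arg1 was at 156, 243, 186 and 222 CPM against 476, 994.5, 233 and 1130, so control 3 lay within the iKO range. Its change was -1.90 ± 0.42 (edgeR adjusted p = 0.0184), and it lost the call without iKO 1, control 2 or control 4 (adjusted p = 0.0607, 0.0547 and 0.0510). Chil3 was at 303 to 342 CPM in iKO and 298 to 1785 in control (-1.36, adjusted p = 0.0838).

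In C1q macrophages, where cluster 0 held 51.5% of iKO and 37.5% of control cells and clusters 2 and 26 another 22.3% and 22.4% of control cells, 3 of 9 were called, all lower, where 3.25% of all genes were called and 1.27% as lower. Arg1 was at 328, 381, 346.5 and 178 CPM in iKO and 787, 893, 501 and 1233 in control, and Fn1 at 152, 135, 311 and 188 against 467, 527, 596 and 1184, neither with overlap, as 3.75% of all genes in this direction. The changes were -1.54 ± 0.30 for Arg1 (edgeR adjusted p = 0.0259) and -1.90 ± 0.33 for Fn1 (adjusted p = 0.0183). Ccl24 was at 10.0, 7.34, 16.3 and 18.3 CPM against 14.2, 93.6, 35.1 and 251, where control 1 lay within the iKO range (-3.07 ± 0.72, adjusted p = 0.0463). Thbs1 did not overlap either, at 143, 459, 432 and 248 CPM against 711, 540, 883 and 899, yet missed the threshold (-1.30, adjusted p = 0.0519). These calls depended on single samples: the count fell from 3 to 0 without iKO 1, iKO 2 or control 2, and to 1 without control 4. Ccl24 missed the threshold in 6 of the 8 fits that left out a sample, with adjusted p up to 0.132.

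In Cxcl9/Cxcl10 macrophages 3 of 9 were called, all lower, where 10.5% of all genes were called and 4.95% as lower. Pf4 was at 52.8, 73.1, 194 and 199.5 CPM in iKO and 356, 1655, 262 and 980.4 in control, without overlap, as 5.33% of all genes in this direction, and its change was -2.76 ± 0.60 (edgeR adjusted p = 0.0161). Arg1 was at 90.7, 136, 91.6 and 85.5 CPM against 89.0, 532, 239 and 451, where control 1 lay among the iKO samples (-1.73 ± 0.43, adjusted p = 0.0267). Fn1 was at 150, 142, 172 and 115 CPM against 240.4, 159, 265 and 488, with control 2 inside the iKO range (-1.06 ± 0.27, edgeR adjusted p = 0.0279). Thbs1 missed the threshold (-0.91, adjusted p = 0.0584). The count of 3 fell to 1 without iKO 1, iKO 2, iKO 4 or control 4 and to 2 without control 2. Most iKO cells of this gate came from clusters 5 and 0 (34.5% and 21.3%), and 33.5% of control cells from cluster 0. The control gate was small, at 47 to 133 cells per sample.

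**Figure D4:**
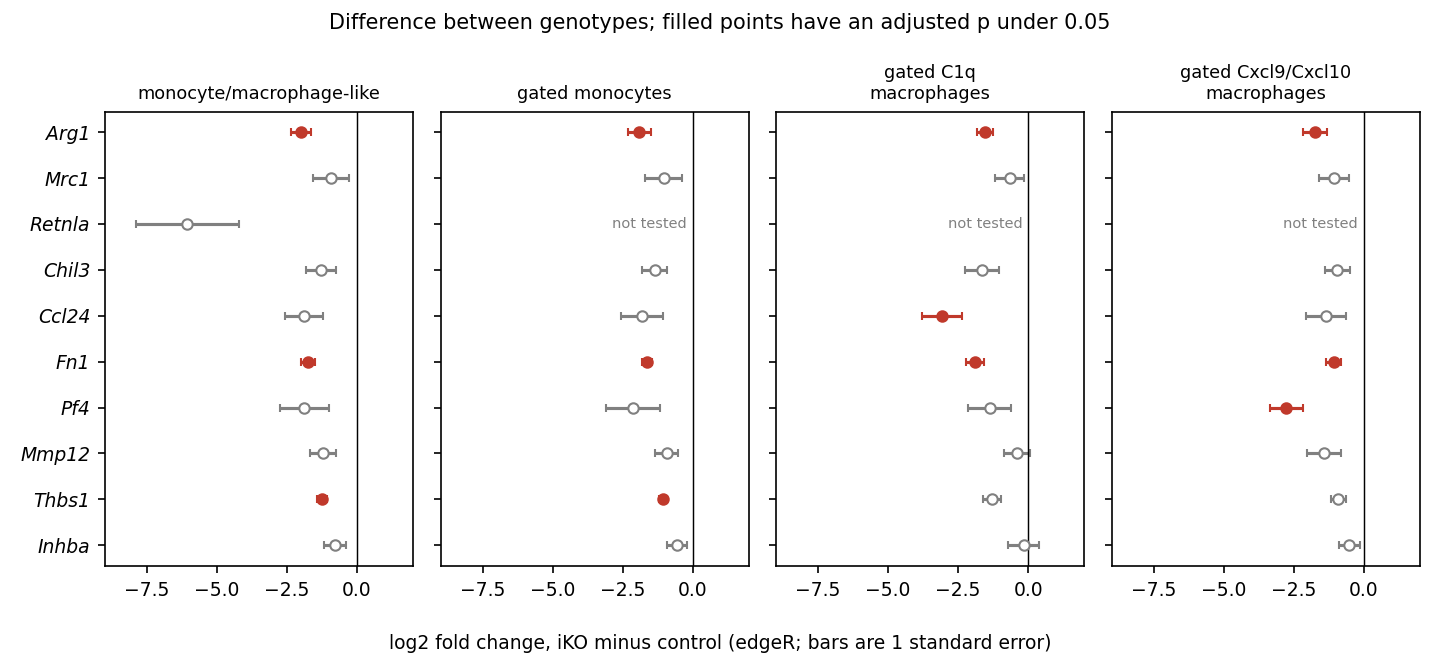
Log2 fold change (iKO over control) with its standard error for each gene in the monocyte/macrophage-like cells and in each gate tested; filled points passed an adjusted p under 0.05 in edgeR's test and the line marks 0. All points in the monocyte/macrophage-like cells lie below 0, and the filled ones are Arg1 at -1.99, Fn1 at -1.75 and Thbs1 at -1.26.

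In gated cycling cells, 20 to 71 per sample, 8 of the genes passed the filter and 0 were called, as were 0 of all 6563 genes (0% background). At an unadjusted p under 0.05 edgeR found 506 genes, among them Thbs1 (-1.95) and Mmp12 (-1.87), and DESeq2 called 25 genes and 0 of the 8. The other 6 cycling-cell changes, from -1.77 for Arg1 to -0.10 for Inhba, had p above 0.05 before adjustment. Whether the genotype effect differed between gated monocytes and C1q macrophages was tested from the within-sample difference in log2(CPM + 1). No gene passed among the 10, with exact permutation p from 0.114 (Ccl24) to 0.886. Without control 1 the Ccl24 difference, and without control 3 the Chil3 difference, had p = 0.0286 by the exact test.

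Gate shares varied between samples, so each gene was also recomputed with every sample given the same mix of gates. This fixes the gates but not the cells within them. The mix included the ungated gate, 6.20% of iKO and 6.38% of control UMIs, which held different cells in each genotype. In C1q macrophages cluster 26 held 8.95% of iKO and 22.4% of control cells. The part of cell mix within gates was not tested. On the log2(CPM + 1) scale the ratio moved from -1.94 to -1.74 for Arg1, from -1.69 to -1.58 for Fn1 and from -1.22 to -1.13 for Thbs1. Each of these 3 had an exact permutation p of 0.0286, the smallest that 4 against 4 samples allow, so this p cannot show whether a difference grew or shrank. The other 7 genes had exact p from 0.114 to 0.286, with 10 genes tested.

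Dendritic cells carried little of these genes. In cDC2-like cells, conventional dendritic cells that present antigen to CD4 T cells, 6 of the 10 were tested and Pf4 alone was called, where 2.98% of all genes were called and 0.823% as lower in iKO. Pf4 was at 4.73 to 6.43 CPM in iKO and 21.9 to 31.9 in control, without overlap (as 5.33% of all genes in this direction), and fell by 2.12 on the log2 scale (SE 0.20, edgeR adjusted p = 0.00129). These levels lie below those of the same gene in T-like cells, 14.2 ± 11.6 and 43.4 ± 8.57 CPM. They therefore do not show that cDC2-like cells make Pf4, and where these UMIs came from was not tested. Mrc1 was at 37.3 ± 25.8 and 67.7 ± 10.6 CPM in cDC2-like cells (-0.93 ± 0.41, adjusted p = 0.231), above its T-like level of 4.35 and 8.39. In mature DC-like cells, dendritic cells that carry migration genes such as Ccr7, 4 genes were tested and 0 called, where 0.0699% of all genes were called. There 3 of the 4, Mrc1, Fn1 and Pf4, had an unadjusted edgeR p under 0.05, and DESeq2 called the same number, 3. No share over all genes is set beside these counts. Over the 8 samples Pf4 was at 40.6 ± 56.3 CPM there, Fn1 at 12.95 ± 11.8 and Mrc1 at 11.3 ± 13.6. The Pf4 and Fn1 means lay between their T-like means of iKO and control, and Mrc1 was not above its T-like means beyond its spread. These levels therefore do not show that mature DC-like cells make these genes. The cDC1-like cells (216) and plasmacytoid cells (151) had too few control samples with 20 cells to test, and held 1 to 93 UMIs of each gene in cDC1-like and 2 to 79 in pDC-like cells.

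Neutrophil-like cells of iKO held 526 ± 295 CPM of Thbs1, those of control 886 ± 408, and Inhba was at 286 ± 317 and 244 ± 146, with overlapping groups for both genes. The other 8 genes averaged under 100 CPM there in both groups.

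The UMIs of a gene were spread over few or many cells, depending on the gene and sample. In control 3, 7 cells, the top 1% by Retnla, held 1946 of its 1963 Retnla UMIs (99.1%), and 1 of them held 835. Retnla was seen in 23 of the 690 cells of that sample. In control 1, 2 and 4 the top 1% of cells held 58.3%, 45.5% and 52.5% of the Retnla UMIs. In the iKO samples it had 18, 2, 38 and 3 UMIs in all, in 8, 2, 5 and 3 cells, fewer than the cells in the top 1%, so its share there is 100% by construction. For Ccl24 the top 1% of cells held 50.6% to 92.6% of the UMIs, lowest in control 4, where 256 of 1324 cells had a UMI. Other genes reached into this range, with up to 63.3% for Mmp12, 55.5% for Pf4 and 52.4% for Inhba. Chil3 was more evenly spread than Retnla and Ccl24, with 5.08% to 20.1% of its UMIs in the top 1% of cells, and control 1, its highest sample, was also the most even.

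**Figure D5:**
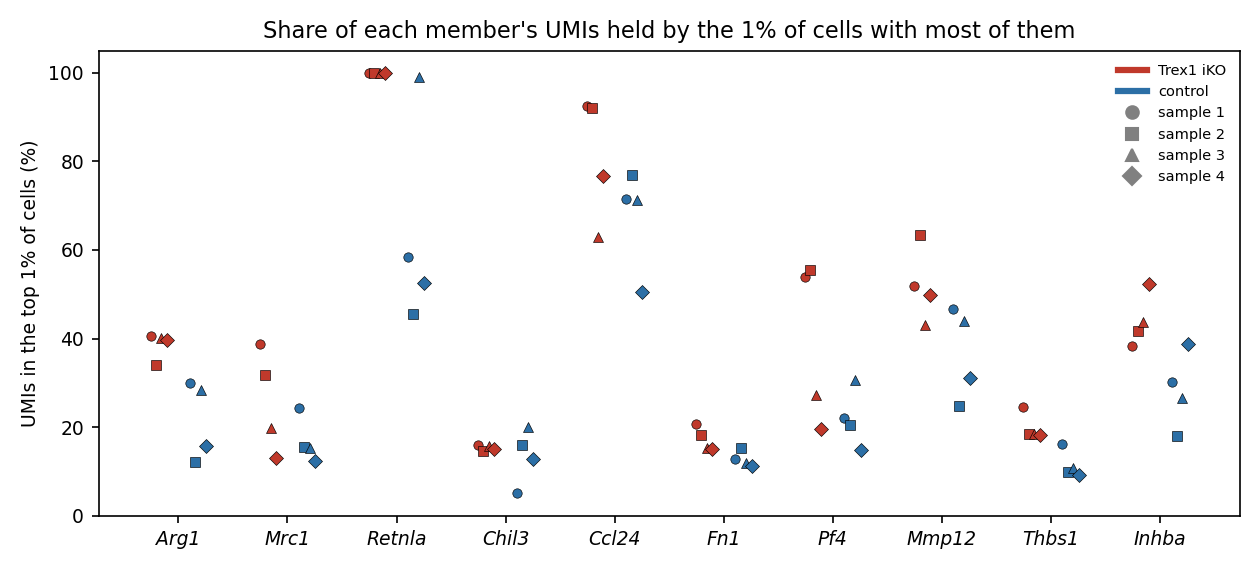
Percent of each gene's UMIs in monocyte/macrophage-like cells that sat in the 1% of cells with most of them; each point is 1 of the 8 samples, coloured by genotype. Retnla reaches 99.1% in control 3, its 100% in the iKO samples is set by having fewer positive cells than the top 1%, and Ccl24 lies between 50.6% and 92.6%.

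Cells were also divided by Arg1 itself, at 2 or more UMIs per 10000, to see which of the other 9 genes shared its cells. Arg1-positive cells made up 7.39%, 8.97%, 10.4% and 9.63% of iKO cells and 16.0%, 31.3%, 16.1% and 35.3% of control cells. Mrc1, Fn1, Pf4, Mmp12, Thbs1 and Inhba were higher in Arg1-positive than in Arg1-negative cells in 8 of 8 samples. The ratio of mean levels was 6.69 for Mmp12, 5.72 for Inhba, 4.32 for Pf4, 2.95 for Thbs1, 2.33 for Mrc1 and 2.20 for Fn1. Chil3 went the other way: it was lower in the Arg1-positive cells of all 8 samples, with a ratio of 0.518. Ccl24 was higher in 5 of 8 samples and Retnla in 1.

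Pairs of genes in thinned cells showed the same division. Chil3 was found less often in Arg1-, Mrc1-, Pf4- and Mmp12-positive cells than in cells without those genes in 8 of 8 samples each. It was found more often in Fn1-positive cells, at 39.4% against 22.6% in iKO and 44.3% against 31.4% in control, and in Thbs1-positive cells, in 8 of 8 samples each. Mrc1 and Pf4 shared cells in both genotypes, since Pf4 was found in 41.5% of Mrc1-positive and 9.36% of Mrc1-negative iKO cells and in 63.0% and 24.1% of control cells. Mrc1 and Inhba did not: Inhba was found in 5.89% of Mrc1-positive and 6.99% of Mrc1-negative iKO cells, and in 7.71% and 14.3% of control cells, higher with Mrc1 in 1 of 8 samples. Cells of 1 sample share their library, so these are descriptions.

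Over 40 profiles (5 gates in 8 samples) each gene was set beside 7215 others by Pearson's r of log2(CPM + 1). The profiles share libraries, depth and genotype, and the values carry no test. Arg1 was most like Ell (r = 0.873), Pgk1 (0.854) and Bnip3 (0.842), and Mrc1 like Dab2 (0.900), Slc25a3 (0.899) and Slc25a4 (0.896). Fn1 was most like F13a1 (0.859), Thbs1 like Cd14 (0.881), Srgn (0.842) and Rgcc (0.841), Inhba like Mcl1 (0.868), Slc2a1 (0.864) and Sdc1 (0.859), and Mmp12 like Fth1 (0.8287). The nearest gene was Rnf150 for Pf4 (0.851), Hopx for Chil3 (0.741), Gas2l1 for Ccl24 (0.656) and Lyz1 for Retnla (0.583). Among the 10 themselves, the highest r over all 40 profiles were Arg1 with Thbs1 (0.768), Mrc1 with Pf4 (0.762) and Arg1 with Mmp12 (0.698), and the lowest was Mrc1 with Inhba (-0.49).

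Other genes of the same pathways were read in the monocyte/macrophage-like cells, where 10.8% of all genes were called, 4.94% as lower and 5.84% as higher. Of 28 further alternative activation genes 23 were tested and 4 called, 1 higher and 3 lower, with a median log2 fold change of -0.34 against -0.01 over all genes. Pparg, a nuclear receptor that supports this state, rose (40.4 CPM in iKO and 17.9 in control, +1.14, edgeR adjusted p = 0.0108). Ccl17 (-4.56), Ccl22 (-1.04) and Retnlg (-1.69) fell. Ccl22 was low, at 0.855 CPM in iKO and 1.69 in control, and Ccl17 was at 1.01 and 23.4. Mature DC-like cells held 550 and 869 CPM of Ccl22 and 107 and 180 of Ccl17. Mature DC markers in the monocyte/macrophage-like cells summed to 81.0 to 236 CPM in iKO and 206 to 387 in control. Retnlg is also a neutrophil gene, and the neutrophil markers given above were higher in control. The part of dendritic cells and neutrophils in these falls was not tested. The interleukin-4 receptor Il4ra was at 114 and 112 CPM (0.01) and Stat6 at 68.0 and 60.2 (0.14), and neither passed the test.

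In arginine and polyamine metabolism 1 of 13 genes was called, which is no more than the 10.8% of all genes: Slc7a2, a cationic amino acid transporter that carries arginine, fell by 1.81 on the log2 scale (edgeR adjusted p = 0.0201), at 2.93 CPM in iKO and 10.6 in control. Nos2, which uses the same substrate as Arg1, was at 38.7 and 40.8 CPM. Ass1, which rebuilds arginine from citrulline, was at 248 and 103 CPM (+1.26, adjusted p = 0.0778). The median of the list was -0.09.

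Of 29 matrix remodelling genes tested, out of 33, 7 were called, 2 higher and 5 lower, beside 10.8% of all genes, with a median of -0.25. F13a1, which encodes the crosslinking factor XIIIa subunit, fell from 559 CPM in control to 253 in iKO (-1.19, edgeR adjusted p = 0.00994). The neutrophil collagenase gene Mmp8 (-1.004), the gelatinase gene Mmp9 (-1.67), the inhibitor gene Timp1 (-0.82) and the angiogenic factor gene Vegfa (-1.47) also fell. Neutrophils carry Mmp8 and Mmp9 too, and the neutrophil marker sum, 192 to 350 CPM in iKO and 451 to 868 in control, moved the same way; its part was not tested. Plau (+0.71), which encodes urokinase, and Itgav (+0.38), an integrin chain that binds fibronectin and thrombospondin, rose. In activin and TGF-beta signalling 2 of 16 tested genes were called, a share near the 10.8% of all genes. They were the inhibitory Smad7 (-0.92) and Ltbp3 (-1.97), and the list's median was 0.03. Ltbp3 was low, at 0.357 CPM in iKO and 1.24 in control, as was Mmp9 above, at 1.52 and 4.73. Of 10 receptor genes tested 2 were called, both higher, where 5.84% of all genes were: Itgav and Cd47 (+0.54, adjusted p = 0.0440), a thrombospondin receptor.

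The lists were also counted within the gates. In the arginine and polyamine list and the activin and TGF-beta list, 0 to 2 genes were called in each gate. In gated monocytes 8 of 27 matrix remodelling genes were called, all lower, where 10.0% of all genes were called and 4.32% as lower, and the list's median was -0.13. One of the 8, Vcan, was used to draw this gate, so its call there is no finding. Mmp8 and Mmp9, neutrophil genes, were also among the 8, and the neutrophil markers in this gate, a list that holds Mmp9, summed to 149 to 443 CPM in iKO and 392.1 to 1257 in control. Their part in these calls was not tested. In C1q macrophages 3 of 20 alternative activation genes were called, all higher, where 1.98% of all genes were called as higher, and the list's median was -0.11: Pparg (+1.25), Il10 (+1.55) and Folr2 (+1.65). In Cxcl9/Cxcl10 macrophages 4 of 18 were called, all lower, where 10.5% of all genes were called and 4.95% as lower: Mgl2 (-3.36), Ccl8 (-2.31), Ccl17 (-7.36) and Stab1 (-1.14). Mgl2 and Ccl17 are also cDC2 genes, and the cDC2 markers in this gate, a list that holds Ccl17, summed to 153 to 203 CPM in iKO and 141 to 787 in control. Mgl2 averaged 17.1 ± 16.6 CPM over the iKO samples and 138 ± 124 over the controls, and Ccl17 0.574 ± 0.492 and 121 ± 223. The part of cDC2 cells in these values was not tested. F13a1 was called lower in all 3 gates, at -0.999, -1.67 and -0.88. Whether these changes differ between gates was not tested. Further counts went both ways. In C1q macrophages, where 3.25% of all genes were called, 4 of 23 matrix genes were called, 1 higher and 3 lower. In Cxcl9/Cxcl10 macrophages 4 of 24 were, 2 higher and 2 lower. Of the alternative activation genes 3 of 20 were called in monocytes, 1 higher and 2 lower. Of the receptors 2 of 9 were called in monocytes, both lower (Cxcr3 and Sdc4), and 2 of 8 in Cxcl9/Cxcl10 macrophages, both higher.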

How the data were processed

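The deposited matrices hold raw UMI counts per gene and cell barcode, with 1 matrix per hashtagged sample, made by the authors with Cell Ranger 7.1.0 per the file headers on build GRCm39 per the submitters' processing notes. Whether intronic reads were counted, and how a barcode got its hashtag: not given in the sources used here. Antisense and overlapping genes were counted as the authors' software assigned them.

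Cells were kept with at least 300 genes and at most 10% mitochondrial UMIs, which removed 1241 of 23731 barcodes. Scrublet in scanpy 1.11.5 (expected rate 0.06, score above 0.25) removed 438 doublets. Leiden clustering (leidenalg 0.10.2, resolution 2, 2000 variable genes, 30 components, 20 neighbours) gave 35 clusters without the 10 genes, interferon-induced genes, antigen receptor segments, ribosomal and mitochondrial genes and others (1089 in all). A cluster was named "X-like" from marker lists, with a marker counted as detected at a mean of 0.5 UMIs per 10000 and no name given where the second type's score exceeded 0.8 of the best; both values were chosen after seeing the data. Names are rebuilt and left 2 clusters, 27 and 33, unnamed.

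Gates were read per cell in UMIs per 10000, in this order: at least 2 for cycling genes, 5 for Cxcl9 plus Cxcl10 (each with at least 2 raw UMIs), 10 for C1qa, C1qb and C1qc, and 2 for Vcan plus Ccr2. Cells between 0.5 and 2 times a threshold made up 7.85% to 14.4% of the class. UMIs were summed per sample and profile (at least 20 cells in at least 3 samples per genotype) and fitted per profile over all genes in R 4.3.3 with edgeR 4.0.16 (filterByExpr, TMM, quasi-likelihood test, Benjamini-Hochberg, threshold 0.05). DESeq2 1.42.0, other scalings, no filter, a replicate block, no doublet removal, a 5% mitochondrial limit, changed gates and leaving out each sample were the alternatives. Shares, gate mixes and the difference between gates were compared with 2-sided exact permutation tests over the 8 samples (70 splits); a pseudocount of 1 was used on the log2 scale. On simulated counts for the monocyte/macrophage-like profile (11814 genes, 200 changed 4-fold) the test recovered 95.5% of the changed genes, and 4.50% of its calls were false.

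The genes named are the 10 in every profile, the called genes of 5 related lists and the most alike genes by correlation. The 10 genes and the lists were chosen with earlier results of these data known. Deviations of same-numbered samples had correlations of 0.199, -0.127, -0.0544 and 0.167, and those of differently numbered samples ran from -0.216 to 0.228. The reported fit therefore does not pair samples by number. These values cannot show that no pairing exists. The control pool, the iKO pool and all 8 matrices were used. A promoter motif that was also searched is not reported here.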

Additional observations from a re-analysis of the deposited data

Results flagged for a closer look

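A sample was singled out where its gap to the next sample was large for the range of its group of 4. Over 110 groups checked, 10 had such a sample, and chance alone gives about 1 in 20. Retnla stood out in control 3, at 191 CPM in monocyte/macrophage-like cells (next 3.59) and 612 CPM in C1q macrophages (next 5.42). It also stood out at low level in iKO 3, at 4.52 CPM in gated monocytes and 5.15 CPM in C1q macrophages. Fn1 stood out in gated monocytes of control 4, at 1203 CPM. Chil3 stood out in C1q macrophages of control 1, at 587 CPM. Ccl24 stood out in control 4, at 135 CPM in Cxcl9/Cxcl10 macrophages and in 10.1% of thinned monocyte/macrophage-like cells. Arg1 stood out in iKO 2 at 136 CPM in Cxcl9/Cxcl10 macrophages, and in iKO 1 as the lowest share, 8.07% of thinned cells.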

How the results depend on the processing

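Of 55 fold changes of the 10 genes, recomputed under 930 alternatives in all, 852 kept their direction and side of the threshold, 35 newly passed it, 27 no longer passed it and 16 changed sign. In monocyte/macrophage-like cells 3 to 4 of the 10 genes were called when 1 sample was left out, and the count of all genes was 344 to 1582 (1992 by DESeq2, 1274 in the reported fit). The counts on leaving out 1 sample were 2 to 4 in gated monocytes, 0 to 3 in C1q macrophages, 1 to 4 in Cxcl9/Cxcl10 macrophages, 0 to 0 in cycling cells, 1 to 2 in cDC2-like cells (2 without iKO 4) and 0 to 1 in mature DC-like cells (1 without iKO 2), 1 to 6 for shares of cells and 0 to 1 for the difference between gates. Without the low-count filter 5 genes were called in C1q macrophages, 6 in Cxcl9/Cxcl10 macrophages, 1 in cycling cells, 5 in cDC2-like and 4 in mature DC-like cells. Without doublet removal 2 were called in cDC2-like cells, DESeq2 called 3 in mature DC-like cells, and unthinned shares gave 7. No share over all genes is set beside these counts, nor beside those of the gates and dendritic classes without the filter. With the replicate number as a block, though no pairing by number is known, 5 genes were called in monocyte/macrophage-like cells (Retnla and Inhba added). Mature DC-like cells had 2, and 1034 genes were called in all in the monocyte/macrophage-like cells. The cause of these shifts was not tested. Leaving out clusters 17 and 26, an alternative chosen after seeing the data, ended the Ccl24 call in C1q macrophages (adjusted p = 0.0663) and gave Thbs1 one (0.0326).

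Changes of sign occurred where no call was made. On leaving out 1 sample, the log2 fold change ran from -0.75 to 0.29 for Mmp12 and -0.86 to 0.16 for Inhba in C1q macrophages, and from -1.65 to 0.58 for Ccl24 in Cxcl9/Cxcl10 macrophages. In cycling cells, which had few cells, it ran from -0.89 to 0.0697 for Mrc1, -1.01 to 1.08 for Chil3, -1.26 to 0.46 for Fn1, -1.11 to 0.23 for Pf4 and -0.79 to 1.77 for Inhba. There Chil3 was 0.34 with the replicate block and Inhba 0.11 by DESeq2. Depth limits Retnla, with 61 UMIs over all iKO monocyte/macrophage-like cells, and the dendritic-cell classes. Intervals and floors would cover counting error only.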
